A study of Homo sapiens with 8 samples.

Results

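IFITM1, IFITM2, IFITM3, IFITM10 and BST2 are 5 of the 59050 gene symbols counted in RNA from tumours that H2122 cells, a long-established line of human lung cancer, formed as xenografts in mice. They were taken by symbol from the gene counts, and they were picked because several of them differed between the 2 kinds of tumour described here. The 4 parental tumours carried the WT genotype and the 4 knockout tumours came from H2122 cells with SMARCA4 knocked out. SMARCA4 is the motor subunit of SWI/SNF, a complex that moves nucleosomes. All 8 tumours had been treated with vehicle. The sources used here do not state whether the knockout line was 1 clone, which host mice carried the tumours, or whether each tumour came from its own animal, so every p-value measures only the spread between these 8 samples.

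IFITM proteins are small membrane proteins that keep enveloped viruses from fusing with a cell. IFITM1 sits mostly at the cell surface, whereas IFITM2 and IFITM3 sit mostly in endosomes. BST2, also called tetherin, is held in the membrane at both ends and ties budding virus particles to the cell that made them. Interferons induce IFITM1, IFITM2, IFITM3 and BST2 through transcription factors such as IRF9, which bind a promoter element called the ISRE. IFITM10 is a more distant relative that is not known as an interferon-induced gene.

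The 3 IFITM genes nearest to each other are also nearly alike in sequence, which bears on every value given for them. In GENCODE 29 coordinates (GRCh38), IFITM2 (ENSG00000185201.16) runs on the plus strand from base 307631 to 315272 of chromosome 11, and IFITM1 (ENSG00000185885.15) runs on the same strand from 313506 to 315272, inside the annotated span of IFITM2. IFITM3 (ENSG00000142089.15) lies on the minus strand of the same chromosome from 319669 to 327537. IFITM10 (ENSG00000244242.1) lies further along it on the minus strand, from 1732410 to 1750591. BST2 (ENSG00000130303.12) is on the minus strand of chromosome 19, from 17402939 to 17405648. IFITM1 and IFITM2 share 351 exon bases on 1 strand, which is 32.5% of the exon bases of IFITM1 and 22.8% of those of IFITM2.

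The coding sequences of IFITM2 and IFITM3 are 93.9% identical over 396 aligned bases. IFITM1 is 84.8% identical to IFITM2 and 86.9% identical to IFITM3, each over 336 aligned bases, and IFITM10 is 62.5% to 67.0% identical to these genes. The longest run that IFITM1 shares with IFITM2 without a difference is 99 bases, and the same 99 bases are also the longest identical run of IFITM2 and IFITM3. They are printed here (from GENCODE 29, sense strand) because a read lying inside them cannot be assigned to 1 of the 3 genes by its sequence:
shared by IFITM1, IFITM2 and IFITM3: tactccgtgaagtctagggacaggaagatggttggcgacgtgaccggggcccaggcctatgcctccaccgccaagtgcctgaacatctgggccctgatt
This run covers coding bases 175 to 273 of IFITM1, 235 to 333 of IFITM2 and 238 to 336 of IFITM3, where base 1 is the A of the start codon.

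The starts of the coding sequences, in contrast, tell IFITM1 apart from the other two at a glance. The first 60 coding bases of each gene (GENCODE 29) are:
IFITM1: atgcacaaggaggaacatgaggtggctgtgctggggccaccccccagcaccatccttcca
IFITM2: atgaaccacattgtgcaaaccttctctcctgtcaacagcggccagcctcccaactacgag
IFITM3: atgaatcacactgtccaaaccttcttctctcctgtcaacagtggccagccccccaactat
IFITM1 has 125 coding codons, IFITM2 has 132 and IFITM3 has 133, against 228 for IFITM10 and 180 for BST2. Of all 50-base stretches in the longest coding transcript, 42.3% for IFITM1, 15.8% for IFITM2 and 20.3% for IFITM3 also occurred in transcripts of another gene. For IFITM10 it was 27.8%, all through the readthrough gene AC068580.4, and for BST2 it was 0. With 100-base stretches the shares were 37.7%, 0%, 5.9%, 26.8% and 0% in that order. The read length, and whether reads were counted by strand, are not given in the sources used here, so reads of the IFITM paralogs may have been split, moved or dropped to an unknown extent.

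The RefSeq promoter table (GRCh38.p14) held windows for 3 of the 5 genes, IFITM1, IFITM3 and BST2. Each window covers 250 bases before the RefSeq start and 50 after it, and all 3 held the ISRE core GAAANNGAA, searched on both strands. The 30 bases around each match or pair of matches, read along the gene's own strand with the core in capitals, are shown because this is the element through which interferon-activated factors bind these genes:
IFITM1, upstream match: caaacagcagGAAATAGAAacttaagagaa
IFITM1, match at the start: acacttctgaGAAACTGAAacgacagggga
IFITM3, 2 matches: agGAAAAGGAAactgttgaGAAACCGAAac
BST2, 2 overlapping matches: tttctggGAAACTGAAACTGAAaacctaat
These stretches lie at chr11:313990-314019 and chr11:314024-314053 on the plus strand for IFITM1, at chr11:320885-320914 on the minus strand for IFITM3 and at chr19:17405738-17405767 on the minus strand for BST2. In GENCODE 29 the IFITM1 and IFITM3 stretches fall inside exons of longer transcripts of the same gene. The BST2 stretch falls inside exons of BISPR and MVB12A, which run the opposite way.

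Counted from the RefSeq start, with base 1 as the first transcribed base and base -1 before it, the cores of IFITM1 sit at -40 to -32 and at -6 to 3. Those of IFITM3 sit at -52 to -44 and -35 to -27, and those of BST2 at -130 to -122 and -124 to -116. The core occurred in 8.11% of all 35116 windows in the table. A second element, the GAS core TTCNNNGAA, searched on both strands, occurred in 7.66% of windows and was found at -12 to -4 in IFITM1, where it overlaps the ISRE core at the start by 3 bases, and at -136 to -128 and -58 to -50 in BST2, the first of which overlaps an ISRE core by 3 bases. The IFITM3 window held no GAS match. A match describes letters only.

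IFITM1, IFITM2 and BST2 were lower in the knockout tumours than in every parental tumour, while IFITM3 and IFITM10 overlapped between the groups. Levels are given as CPM, a gene's count relative to the TMM-scaled total of its library, and differences on the log2 scale, knockout minus parental (log2 fold changes), from edgeR with their standard error (SE). Because the genes were chosen from this very contrast, their differences are a description and carry no test. By the threshold used for all genes, an edgeR adjusted p under 0.05, 3 of the 5 were called lower and none higher. Of the 16219 genes tested, 27.0% were called in either direction, 14.1% lower and 13.0% higher, and 15.3% had every knockout tumour below every parental tumour, against 14.0% with every knockout tumour above. All 5 genes passed the filter on low counts.

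**Figure D1:**
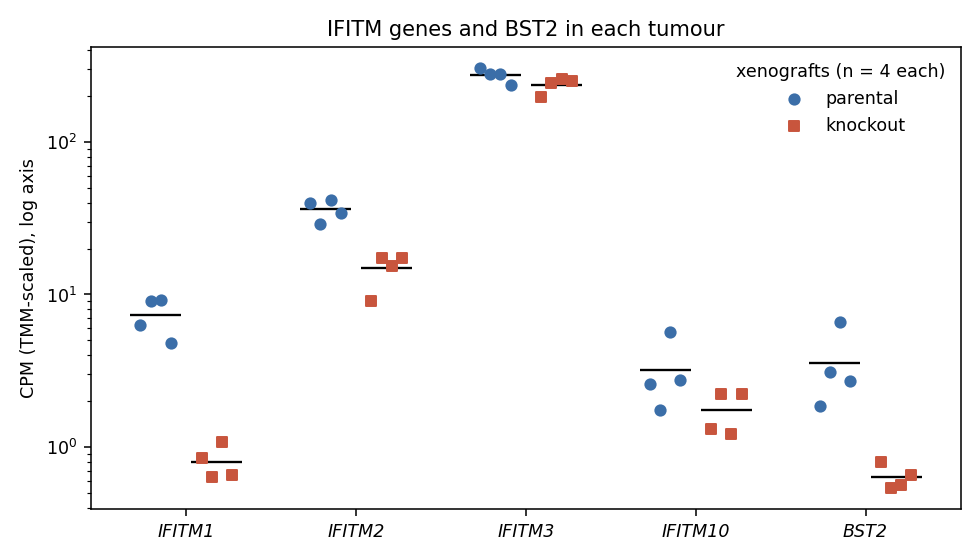
CPM of each gene in every tumour on a log axis, with 4 parental tumours (circles) and 4 knockout tumours (squares); the bar is the group mean. Parental and knockout points stand apart for IFITM1, IFITM2 and BST2 and overlap for IFITM3 and IFITM10.

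IFITM1, the cell-surface member, read 6.32, 9.13, 9.20 and 4.80 CPM in parental replicates 1 to 4 and 0.841, 0.634, 1.07 and 0.654 CPM in knockout replicates 1 to 4. The lowest parental tumour was above the highest knockout tumour. The means were 7.36 ± 2.17 CPM (SD, n = 4) and 0.800 ± 0.205 CPM (SD, n = 4), or a log2 difference of -3.19 (SE 0.275), or 9.12-fold lower in the knockout. The counts behind these values were 113 to 206 reads in each parental and 13 to 23 in each knockout library, so the knockout level rests on few reads. Leaving out any 1 library gave log2 fold changes from -3.36 to -3.07.

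IFITM2, an endosomal member, read 39.6, 29, 41.8 and 34.2 CPM in the parental tumours and 9.02, 17.4, 15.4 and 17.4 CPM in the knockout tumours, in replicate order. Again the groups did not overlap, and knockout replicate 1 was the lowest of all 8. The means were 36.1 ± 5.75 and 14.8 ± 3.98 CPM (SD, n = 4 each), or a log2 difference of -1.29 (SE 0.195), or 2.44-fold lower. Without knockout replicate 1 it was -1.11.

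IFITM3, the other endosomal member and the most abundant of the 5, read 304, 278, 277 and 237 CPM in the parental tumours and 196, 244, 260 and 250 CPM in the knockout tumours. Parental replicate 4 lay below 3 of the knockout tumours, so the ranges overlapped. The means were 274 ± 27.7 and 238 ± 28.6 CPM (SD, n = 4 each), and the log2 fold change of -0.21 (SE 0.11) was not called. The gene also overlaps AC136475.5, on the opposite strand over 287 exon bases (21.3% of its exon bases), which drew only 18 counts in the parental and 3 in the knockout libraries.

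IFITM10, the distant relative, read 2.59, 1.76, 5.67 and 2.76 CPM in the parental tumours and 1.31, 2.24, 1.21 and 2.24 CPM in the knockout tumours. A single tumour, parental replicate 3, stood above the rest, and parental replicate 2 lay below both higher knockout tumours. Means of 3.2 ± 1.71 and 1.75 ± 0.568 CPM (SD, n = 4 each) gave a log2 fold change of -0.87 (SE 0.362), not called. It was -0.44 without parental replicate 3, and it passed the threshold without parental replicate 2, at -1.07.

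BST2, the tether of budding particles, read 1.86, 3.12, 6.61 and 2.72 CPM in the parental tumours and 0.794, 0.536, 0.560 and 0.654 CPM in the knockout tumours. Every knockout tumour was below the lowest parental tumour, replicate 1. The means were 3.58 ± 2.09 and 0.636 ± 0.117 CPM (SD, n = 4 each), or a log2 difference of -2.48 (SE 0.392), or 5.60-fold lower. Knockout libraries held 11 to 17 reads of the gene and parental libraries 36 to 148, and without parental replicate 3 the log2 fold change was -2.01.

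As a check of the labels, SMARCA4 itself fell from 221 ± 16 to 27.3 ± 3.90 CPM (SD, n = 4 each), with a log2 fold change of -3.02 (SE 0.117), and was lower in every knockout library. The libraries held 19785922 to 23191698 gene counts each, and no pair of the 8 agreed within sampling noise. The median log2 fold change of all genes tested was 0, and 49.5% of them lay below zero.

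Divided by the exon bases that no gene on the same strand shares, the levels were set beside each other across genes. In the parental tumours, the order of CPM per kilobase was IFITM3 at 203 ± 20.6, IFITM2 at 30.3 ± 4.83, IFITM1 at 10.1 ± 2.98, BST2 at 3.2 ± 1.87 and IFITM10 at 0.859 ± 0.459 (SD, n = 4 each). No 2 neighbours in this order had overlapping ranges. In the knockout tumours the order was the same, with IFITM3 at 176 ± 21.2, IFITM2 at 12.4 ± 3.33, IFITM1 at 1.10 ± 0.281, BST2 at 0.568 ± 0.105 and IFITM10 at 0.471 ± 0.153 CPM per kilobase (SD, n = 4 each). There, BST2 and IFITM10 overlapped, while the other neighbours did not. The level of IFITM2 was 3.0 times that of IFITM1 in the parental tumours and 11.3 times in the knockout tumours, and that of IFITM3 was 6.71 and 14.2 times that of IFITM2. With bases shared on the opposite strand also left out, IFITM3 read 258 in the parental and 224 CPM per kilobase in the knockout tumours. Its ratios to IFITM2 would then be larger. Reads dropped from stretches shared by the paralogs would also change these ratios.

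Because reads can pass between the 3 paralogs, their counts were also pooled and each gene was given as a share of the pool. IFITM1 made up 2.31 ± 0.620% of the pool in the parental tumours and 0.321 ± 0.0902% in the knockout tumours (SD, n = 4 each). For IFITM2 the shares were 11.4 ± 1.61% and 5.77 ± 1.04%, and for IFITM3 86.3 ± 1.49% and 93.9 ± 0.958%. The ranges of the groups did not overlap for any of the 3 shares: 1.74% to 2.89% against 0.242% to 0.409% for IFITM1, 9.16% to 12.7% against 4.38% to 6.64% for IFITM2, and 84.5% to 88.0% against 93.1% to 95.2% for IFITM3. The 3 shares of a tumour add up to the whole pool, so they are not 3 separate results. When those of IFITM1 and IFITM2 are smaller, that of IFITM3 must be larger, although its CPM was not higher. The shares describe genes chosen from this contrast and carry no test. The pool as a whole measured 317 ± 31.1 and 253 ± 32.2 CPM (SD, n = 4 each), with overlapping ranges and a log2 fold change of -0.33 (SE 0.112), not called. The knockout mean was 79.7% of the parental mean, since IFITM3 supplies most of the reads.

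**Figure D2:**
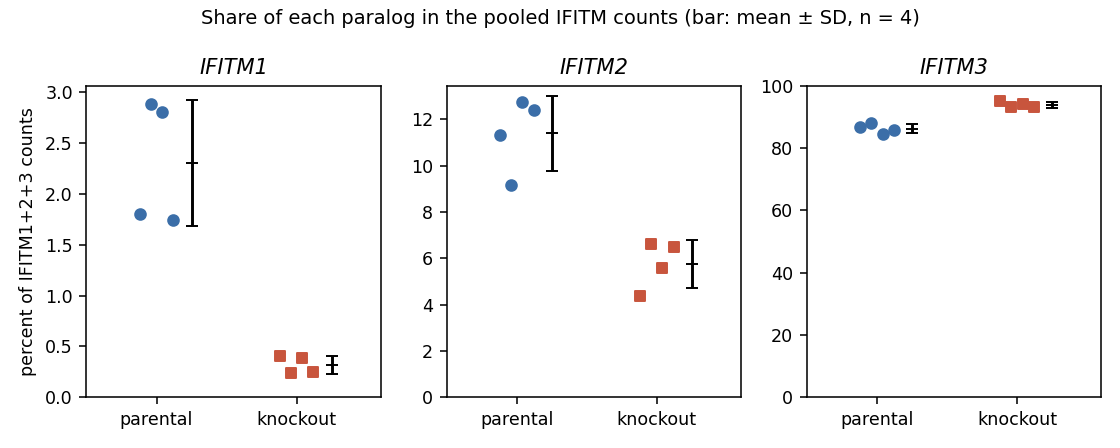
Share of IFITM1, IFITM2 and IFITM3 in their pooled counts in percent, 1 panel per gene with its own axis from 0, for 4 parental (circles) and 4 knockout (squares) tumours; bars show mean ± SD. IFITM1 and IFITM2 held smaller shares in all 4 knockout tumours, and IFITM3 held 93.1% to 95.2% there against 84.5% to 88.0% in the parental tumours.

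Within each group, the 5 genes did not order the tumours alike. Parental replicate 3 was the highest parental tumour for IFITM1, IFITM2, IFITM10 and BST2 but not for IFITM3, which was highest in replicate 1. Knockout replicate 1 was the lowest knockout tumour for IFITM2 and IFITM3 and the highest for BST2. With each group's mean removed, the correlation over the 8 tumours was 0.73 between IFITM2 and IFITM3, 0.64 between IFITM2 and IFITM10, 0.54 between IFITM10 and BST2 and 0.49 between IFITM1 and BST2. The remaining 6 pairs lay between -0.28 and 0.27. Within 1 tumour, the genes share a library, its depth and, for the IFITM genes, possibly reads, and the values are given as a description.

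The spread between tumours of 1 group was set beside the 500 genes nearest in mean log2 CPM over all 8 tumours. They were not matched within a group, so for IFITM1 and BST2 they differ in level from the gene in each group. BST2 had an SD of 0.75 on the log2 CPM scale in the parental tumours, at the 86.8 percentile of the 500 genes, and 0.22 in the knockout tumours, at the 24.8 percentile. Without parental replicate 3 the former was 0.37, and without knockout replicate 1 the latter was 0.13. IFITM10 lay at the 89.0 percentile in the parental tumours, with an SD of 0.68 that was 0.34 without parental replicate 3, and at the 84.6 percentile in the knockout tumours. IFITM2 was tighter in the parental tumours, with an SD of 0.24 (70.0 percentile), than in the knockout tumours, with 0.45 (98.2 percentile), where replicate 1 was lowest and the SD without it was 0.10. Without parental replicate 2 the parental SD of IFITM2 was 0.15. IFITM1 lay at the 67.0 and 63.2 percentiles, with a knockout SD of 0.32 that was 0.20 without knockout replicate 3. IFITM3 lay at the 50.4 and 80.4 percentiles, and its SDs of 0.15 and 0.18 were 0.07 without parental replicate 4 and 0.05 without knockout replicate 1.

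The genes whose tumour-to-tumour pattern was most like each gene, again with group means removed, were sought among 13053 tested genes. For IFITM1 the nearest was DHX58 (r = 0.99 over 8 tumours), which encodes a relative of the RNA sensors RIG-I and MDA5, followed by DIS3L2, C1orf115, TMCO4 and SPON1. BST2 was nearest to SLC29A4 (r = 0.99), a monoamine transporter gene, then CYB5R1, TMEM136, PIGZ and CFAP69. IFITM2 was nearest to EPB41L4A (0.94), then C17orf58, B3GNT7, MAPK8IP2 and PPFIBP2. IFITM3 was nearest to FAM86C1 (0.96), then AC139530.2, TAF8, TXNIP and SMCO4, and IFITM10 to RSPH1 (0.97), then SELENBP1, TRIM3, TRMO and CEP85L. These lists were not stable, since leaving out 1 tumour kept at most 3 of the 5 names for any gene.

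Markers of other cells were read in the same libraries, because IFITM genes and BST2 are also active in leukocytes and blood vessels. Bulk RNA cannot tell fewer cells of a type apart from less RNA per cell. The summed level of 16 leukocyte markers ranged from 35.3 to 135 CPM in the parental and from 39.8 to 68.7 CPM in the knockout tumours, none was at 0 in all libraries, and none of the 13 tested was called by edgeR at an adjusted p under 0.05, against 1 lower at an unadjusted p under 0.05 and 1 lower by DESeq2. By replicate, the sums were 35.3, 135, 113 and 36.7 CPM in the parental tumours and 68.7, 60.2, 57.1 and 39.8 CPM in the knockout tumours. LCP1 alone, named after its values were seen, gave 19.2, 42.6, 40.4 and 23.7 CPM of the parental sums. Its part of the knockout sums was 22.1, 22.7, 21.5 and 14.6 CPM. Below the filter, CD163 had 111 parental and 25 knockout counts, AIF1 had 85 and 16, and MS4A1 had 12 and 4. Parental replicates 1 and 4 had lower sums than any knockout tumour, and read 6.32 and 4.80 CPM for IFITM1 and 1.86 and 2.72 CPM for BST2. A fit with these 2 parental tumours alone was a choice made after the marker sums were seen. Its log2 fold changes were -2.79 for IFITM1, -1.32 for IFITM2, -0.19 for IFITM3, -0.62 for IFITM10 and -1.86 for BST2. These values carry no test, because the genes were chosen from this contrast, and the part of leukocytes in them was not tested.

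**Figure D3:**
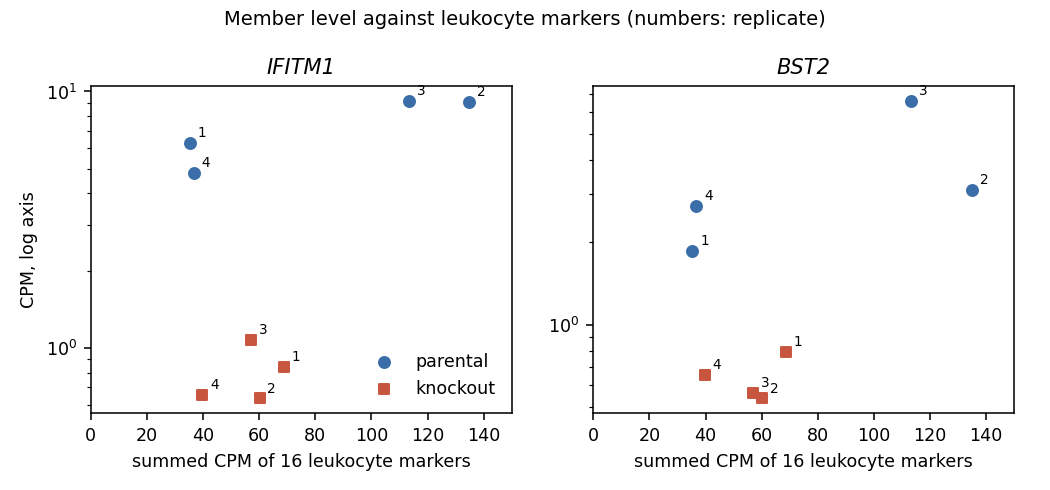
IFITM1 (left) and BST2 (right) in CPM on a log axis against the summed CPM of 16 leukocyte markers, 1 numbered point per tumour (circles parental, squares knockout). Parental tumours 1 and 4 lie left of all 4 knockout tumours and above them in both panels. The part of leukocytes in these levels was not tested.

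The other marker sums overlapped between the groups. Tumour epithelium (EPCAM, CDH1 and keratins) summed to 5756 to 6929 CPM in the parental and 4634 to 6237 CPM in the knockout tumours, and KRT7 and KRT19 were the 2 of 6 markers called lower by edgeR. Fibroblast markers summed to 181 to 611 and 345 to 606 CPM, with LUM called higher, and endothelial markers to 7.25 to 18 and 8.68 to 15.2 CPM, with VWF called lower and CDH5 at 36 counts in the parental and 0 in the knockout libraries. Most of the fibroblast sum was COL1A1 alone, at 174 to 572 CPM in the parental and 317 to 565 CPM in the knockout tumours. Skeletal muscle markers summed to 0.570 to 33.7 and 0.488 to 16.6 CPM. The part of these cells in the levels of the 5 genes was not tested. A step that separates mouse from human reads is not given in the sources used here, so host reads that resemble human transcripts may be among all these counts.

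The closest kin of the IFITM genes, the wider dispanin family, gave almost no reads. Of 12 relatives among the counted symbols, 4 were at 0 in every library and only PRRT1 and TMEM91 passed the filter. Neither was called by edgeR, also at an unadjusted p under 0.05, and their median log2 fold change was 0.43. IFITM5, which acts in bone, had 0 parental and 4 knockout counts. PRRT1B, below the filter, had 7 parental and 37 knockout counts, and DESeq2 called it higher. Both were named after their values were seen.

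Other factors that act, like IFITM proteins and tetherin, where viruses enter and leave were tested as a list of 10 genes, of which 9 passed the filter. By edgeR, 3 were called lower and 1 higher, with a median log2 fold change of -0.14. These are 33.3% and 11.1% of the 9, beside 14.1% and 13.0% of all tested genes. LY6E, a surface protein that blocks coronavirus entry, fell from 74.1 ± 19.9 to 24.0 ± 6.43 CPM (SD, n = 4 each). Its groups did not overlap, and its log2 difference was -1.62 (SE 0.222, edgeR adjusted p = 0.00028). GBP2, an interferon-induced GTPase that lowers virus particle infectivity, fell from 122 ± 21.9 to 81.5 ± 9.07 CPM (log2 fold change -0.59, SE 0.131, edgeR adjusted p = 0.00662). Its relative GBP5 was called lower at -1.40 (SE 0.476, edgeR adjusted p = 0.049), with parental values of 1.19, 4.44, 4.33 and 1.06 CPM that were highest in the 2 tumours with the highest leukocyte sums. With parental replicates 1 and 4 alone, chosen after the marker sums were seen, GBP5 was -0.12 (edgeR adjusted p = 0.805). The part of leukocytes in its values was not tested. GBP5 was also no longer called without parental replicate 2 (-1.08) or 3 (-1.10), or without knockout replicate 1 (-1.31), 2 (-1.51), 3 (-1.29) or 4 (-1.50). SERINC5, which lowers the infectivity of retroviral particles, rose from 102 ± 9.64 to 154 ± 14.9 CPM (log2 fold change 0.58, SE 0.0985, edgeR adjusted p = 0.00116). LY6E and SERINC5 thus moved in opposite directions in the same tumours.

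Among antiviral effectors that act inside the cell, 5 of 26 tested genes were called lower by edgeR and 0 higher, with a median log2 fold change of -0.39. The share called lower was 19.2%, beside 14.1% of all tested genes. IFI44L, an interferon-induced gene, read 3.21, 11.3, 6.61 and 3.70 CPM in the parental and 0.841, 0.585, 2.38 and 0.560 CPM in the knockout tumours, or a log2 difference of -2.50 (SE 0.516, edgeR adjusted p = 0.0041). MX2, a GTPase that blocks nuclear entry of HIV-1, read 4.76, 11.6, 7.86 and 4.51 against 1.59, 2.29, 3.31 and 1.77 CPM (log2 fold change -1.68, SE 0.336, edgeR adjusted p = 0.00335). Both were high in parental replicates 2 and 3, the tumours with the highest leukocyte sums, and without overlap between the groups. The part of leukocytes in the values of these genes was not tested. ISG20, a nuclease, fell from 35.3 ± 2.62 to 25.6 ± 3.06 CPM (log2 fold change -0.47, SE 0.106, edgeR adjusted p = 0.00727), and the other 2 genes called were SLFN5 at -0.73 (SE 0.181, edgeR adjusted p = 0.0114) and SAMHD1 at -0.39 (SE 0.115, edgeR adjusted p = 0.0275). SAMHD1 was not called without parental replicate 2 (-0.29) or without knockout replicate 2 (-0.37), 3 (-0.40) or 4 (-0.36). At an unadjusted p under 0.05, edgeR gave 10 genes lower and 0 higher, and DESeq2 and limma-voom called 7 and 5 lower and 0 higher.

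Several of the best known interferon-induced genes were not among those called. MX1 gave -1.08 (SE 0.378, edgeR adjusted p = 0.0546) and IFI27 -1.13 (SE 0.422, edgeR adjusted p = 0.0698), whereas IFIT1, ISG15 and OAS3 had log2 fold changes of 0.40, 0.38 and 0.18 with edgeR adjusted p of 0.648, 0.241 and 0.413; these 5 were named after their values were seen. The list's values depended on which parental tumours were used. With parental replicates 1 and 4 alone its median was 0.07 and 3 genes (IFI44L, MX2 and ISG20) were called lower and 1 (C19orf66) higher. Those 2 parental tumours were chosen after the marker sums were seen, and the part of leukocytes in the list's change was not tested.

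Interferon receptors and their signalling proteins gave 0 of 21 genes called lower and 3 called higher by edgeR, with a median log2 fold change of 0. Among all tested genes, 14.1% were called lower and 13.0% higher, against 0% and 14.3% of this list. At an unadjusted p under 0.05, edgeR gave 3 lower and 4 higher. DESeq2 called IRF1 alone lower and 3 genes higher, and limma-voom called 0 lower and 3 higher. IFNLR1, a receptor chain for type III interferon, rose from 5.69 ± 1.74 to 12.7 ± 1.24 CPM (log2 fold change 1.16, SE 0.195, edgeR adjusted p = 0.0011). IFNGR1, a receptor chain for interferon gamma, rose by 0.45 (SE 0.116, edgeR adjusted p = 0.0136) and SOCS3, a feedback inhibitor of cytokine receptors, by 0.45 (SE 0.126, edgeR adjusted p = 0.0207), both on the log2 scale. SOCS3 was no longer called without knockout replicate 2 or knockout replicate 3, at edgeR adjusted p of 0.0589 and 0.065.

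Of the transcription factors in this list, STAT2, IRF9, IRF1 and IRF7 were not called. STAT2 gave a log2 difference of 0.01 (SE 0.128, edgeR adjusted p = 0.984) and IRF9 0.33 (SE 0.226, edgeR adjusted p = 0.315). With parental replicates 1 and 4 alone, chosen after the marker sums were seen, IRF9 was called higher at 0.68 (edgeR adjusted p = 0.0409). In the same fit the median of the signalling list was 0.22. IRF1 gave -0.56 (SE 0.219, edgeR adjusted p = 0.0812) and IRF7 -0.08 (SE 0.156, edgeR adjusted p = 0.755). Without parental replicate 1, IRF1 was -0.69 (edgeR adjusted p = 0.0487), and without parental replicate 4 IRF1 was -0.71 (edgeR adjusted p = 0.0256). Of the unadjusted p-values of these 4 genes, only that of IRF1 (0.026) was under 0.05.

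**Figure D4:**
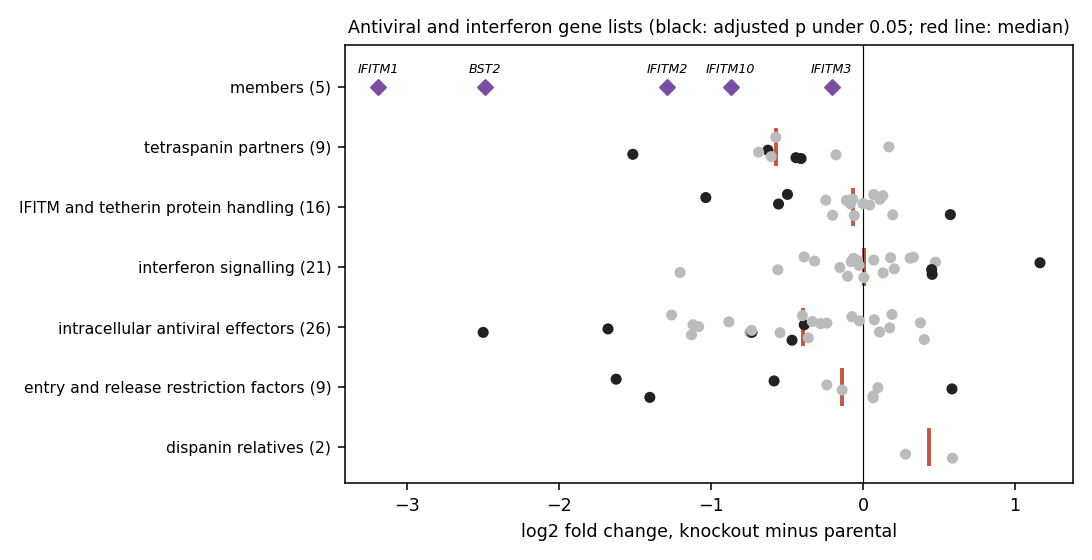
Log2 fold change, knockout minus parental, of every tested gene in 6 lists and of the 5 IFITM and BST2 genes (diamonds), with the number of genes plotted in brackets; black points have an edgeR adjusted p under 0.05, grey points do not, and the red line is the list median. IFITM1 at -3.19 lies left of every point of the 6 lists, and BST2 at -2.48 lies beside IFI44L at -2.50. The 5 genes were chosen from this contrast, so their place beside the lists is a description only.

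Genes that carry the promoter elements were set beside all genes with a promoter window, as counts with no test. Of 977 tested genes with the ISRE core in their RefSeq window, 15.9% were called lower and 11.0% higher by edgeR, with a median log2 fold change of -0.04. For the GAS core it was 940 genes, with 18.4% lower, 10.7% higher and a median of -0.04. A shorter form of the ISRE core, AANNGAAA, gave 2402 genes, with 16.8% lower, 11.4% higher and a median of -0.03. Over all 10990 tested genes with a window, 14.8% were lower and 12.4% higher, with a median of -0.02. The windows of IFITM1, IFITM3 and BST2 held 2 ISRE cores each, and those of IFITM1 and BST2 also held GAS matches. IFITM1 and BST2 were called and IFITM3 was not, in the contrast from which they were chosen. Any part of these elements in the differences was not tested.

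Enzymes and partners known to act on IFITM proteins and tetherin were tested as a list of 17 genes, of which 16 passed the filter. By edgeR, 3 were called lower and 1 higher, with a median log2 fold change of -0.06. In percent this was 18.8% lower and 6.25% higher, beside 14.1% and 13.0% of all tested genes. SLC9A3R1 encodes the scaffold EBP50, a link between membrane proteins and the actin skeleton that is known to connect with the tetherin complex at the apical surface. It fell from 93.9 ± 12.4 to 45.8 ± 3.53 CPM (SD, n = 4 each), or a log2 difference of -1.03 (SE 0.108, edgeR adjusted p = 4.16e-05). ARHGAP44, which encodes the actin regulator RICH2 bound by the tail of tetherin, rose from 14.9 ± 0.798 to 22.1 ± 0.639 CPM (log2 fold change 0.57, SE 0.0896, edgeR adjusted p = 0.000695). Both other genes called, PIGT at -0.50 (SE 0.0741, edgeR adjusted p = 0.0005) and GPAA1 at -0.56 (SE 0.109, edgeR adjusted p = 0.00303), encode subunits of the transamidase that adds the lipid anchor of tetherin, while PIGK, PIGS and PIGU of the same enzyme were not called. For IFITM proteins, neither ZDHHC20, a palmitoyltransferase (log2 fold change -0.08, edgeR adjusted p = 0.682), nor NEDD4, a ubiquitin ligase (0.20, edgeR adjusted p = 0.125), was called; these 5 genes that were not called were named after their values were seen.

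IFITM1 is found in complexes with tetraspanins, a family of membrane proteins. The list of tetraspanins and their partners had 9 tested genes, 7 tetraspanins plus the complement receptor gene CR2 and the caveolin gene CAV1, and 4 of them, all tetraspanins, were called lower and 0 higher by edgeR (also at an unadjusted p under 0.05, and by DESeq2 and limma-voom), with a median log2 fold change of -0.57. The 4 were 44.4% of the 9, beside 14.1% of all tested genes called lower. CD82 fell from 28.4 ± 7.46 to 9.95 ± 1.12 CPM (SD, n = 4 each), or a log2 difference of -1.51 (SE 0.174, edgeR adjusted p = 8.4e-05). CD9 fell by 0.63 (SE 0.0998, edgeR adjusted p = 0.000814) and CD63 by 0.44 (SE 0.0795, edgeR adjusted p = 0.00176) on the log2 scale. CD81, the partner best known for IFITM1, read 193, 186, 194 and 197 CPM in the parental and 138, 133, 152 and 158 CPM in the knockout tumours, or a log2 difference of -0.41 (SE 0.0808, edgeR adjusted p = 0.00316). All 4 were without overlap between the groups. CD151, named after its values were seen, was not called (log2 fold change -0.18, SE 0.0905, edgeR adjusted p = 0.176), and its groups overlapped. The leukocyte tetraspanins CD37 and CD53 were not called either, nor were CR2 and CAV1. The list median was the value of CD37, a gene at 1.17 ± 0.898 CPM in the parental tumours (SD, n = 4).

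The neighbours of each locus on the chromosome were read next, from the 5 nearest tested genes on each side. For comparison, 14.1% of all tested genes were called lower by edgeR and 13.0% higher. Of the 10 nearest tested genes around the IFITM1, IFITM2 and IFITM3 cluster, 2 were called lower and 1 higher by edgeR, with a median log2 fold change of -0.09. Those lower were B4GALNT4, a glycosyltransferase gene 42258 bases away and the nearest tested gene on the IFITM3 side (-0.92, SE 0.148, edgeR adjusted p = 0.000856), and SIGIRR, an inhibitor of interleukin-1 receptor signalling (-0.51, SE 0.106, edgeR adjusted p = 0.00429). PTDSS2 was called higher, at 0.32 (SE 0.101, edgeR adjusted p = 0.0372), and the nearest tested gene on the other side, PGGHG, was not called (0.42, SE 0.213, edgeR adjusted p = 0.175). PTDSS2 was called in only 2 of the 8 fits that left out 1 library, and not without parental replicate 2 (0.31), 3 (0.31) or 4 (0.27) or knockout replicate 1 (0.29), 3 (0.31) or 4 (0.30). PGGHG was called higher without parental replicate 3, at 0.61 (edgeR adjusted p = 0.0471). Inside the cluster, the antisense genes AC136475.2 and AC136475.1 had 34 and 51 parental and 46 and 68 knockout counts.

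**Figure D5:**
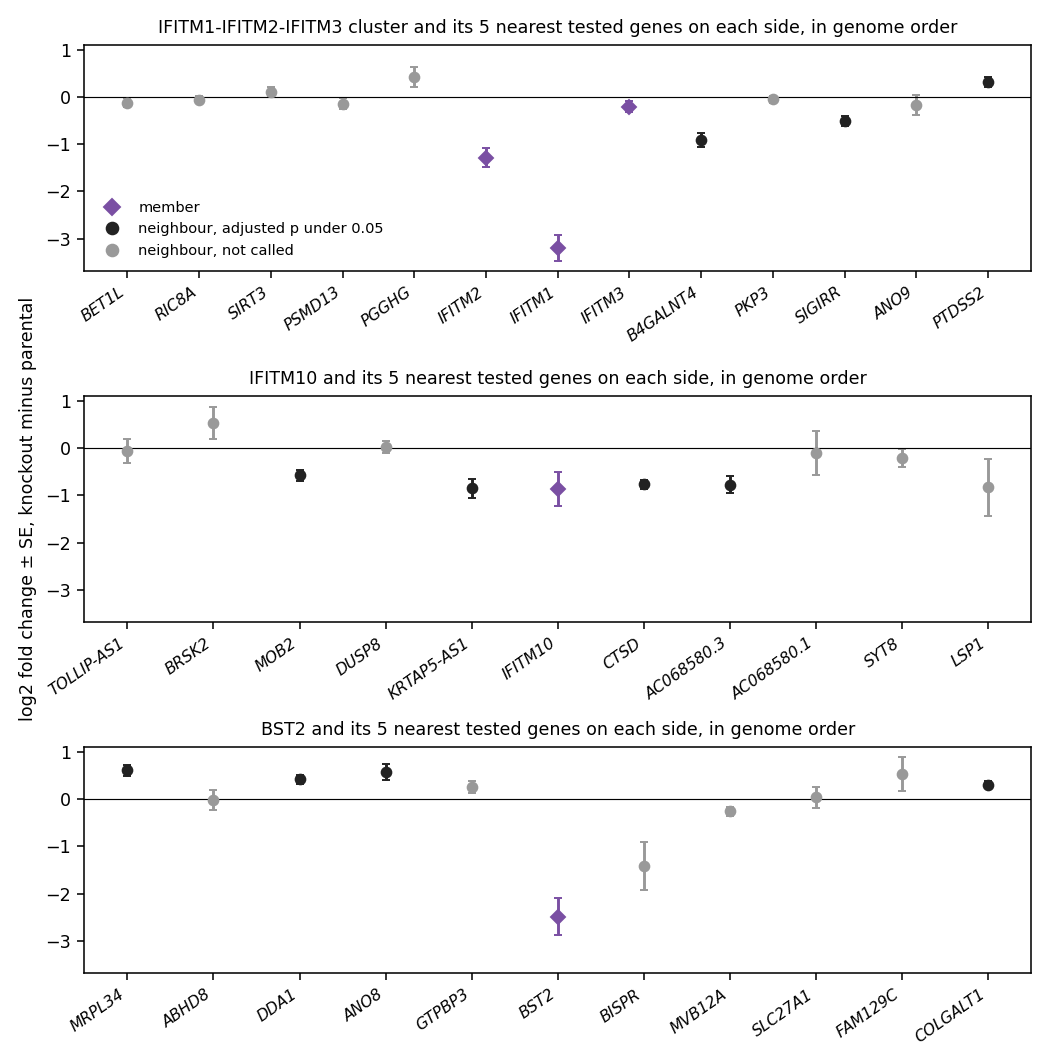
Log2 fold change ± SE, knockout minus parental, of the IFITM and BST2 genes (diamonds) and of the 5 nearest tested genes on each side of each locus, in genome order; black circles have an edgeR adjusted p under 0.05 and grey circles do not. IFITM1 at -3.19 and BST2 at -2.48 lie below all of their plotted neighbours. Both were chosen from this contrast, so their place beside the neighbours is a description only.

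Around BST2, 0 of 10 neighbours were called lower and 4 higher by edgeR, with a median log2 fold change of 0.29. Over all tested genes the shares were 14.1% lower and 13.0% higher. At an unadjusted p under 0.05 edgeR gave 2 lower (BISPR and MVB12A), of which DESeq2 called MVB12A and limma-voom BISPR. The 4 called higher were ANO8 (0.57, SE 0.176, edgeR adjusted p = 0.032), DDA1 (0.42, SE 0.0938, edgeR adjusted p = 0.00662), MRPL34 (0.61, SE 0.116, edgeR adjusted p = 0.00252) and COLGALT1 (0.31, SE 0.0793, edgeR adjusted p = 0.0144), each at least 68109 bases from BST2. The nearest tested gene on the side of BST2 away from BISPR, GTPBP3, was not called (0.26, SE 0.127, edgeR adjusted p = 0.153). Without knockout replicate 3, only DDA1 and MRPL34 were called. ANO8 was also lost without parental replicate 1 (0.56) or knockout replicate 1 (0.52), 2 (0.58) or 4 (0.60), and COLGALT1 without knockout replicate 1 (0.27).

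The gene closest to BST2 is the long noncoding RNA BISPR, which starts 37 bases away on the opposite strand and is known as interferon-induced. It had 9, 19, 30 and 16 counts in the parental and 12, 3, 10 and 2 counts in the knockout libraries. Parental replicate 3 was again the highest and knockout replicate 1 the highest of its group, as for BST2. The means were 0.853 ± 0.375 and 0.317 ± 0.232 CPM (SD, n = 4 each), and the log2 difference of -1.42 (SE 0.506, edgeR adjusted p = 0.0597) did not pass the threshold. It did without parental replicate 1 (-1.62, edgeR adjusted p = 0.0484) or knockout replicate 1 (-1.83, edgeR adjusted p = 0.0425). MVB12A, a subunit of the ESCRT-I complex that starts 73 bases from BST2 on the same strand as BISPR, gave -0.26 (SE 0.0937, edgeR adjusted p = 0.0647), and was called without parental replicate 4 (-0.31, edgeR adjusted p = 0.0279). BISPR and MVB12A share exon bases on 1 strand, so reads from those bases cannot be told apart by position.

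Around IFITM10, 4 of 10 neighbours were called lower by edgeR and 0 higher, against 14.1% and 13.0% of all tested genes. The 10 had a median log2 fold change of -0.39. The counts were the same at an unadjusted p under 0.05 and by DESeq2 and limma-voom. The nearest, CTSD, which encodes the lysosomal protease cathepsin D and lies 2160 bases away, fell from 471 ± 21.5 to 276 ± 22.3 CPM (SD, n = 4 each), or a log2 difference of -0.77 (SE 0.0852, edgeR adjusted p = 6.26e-05). KRTAP5-AS1, the nearest on the other side at 133225 bases, gave -0.85 (SE 0.196, edgeR adjusted p = 0.00781). MOB2, at 231162 bases, gave -0.57 (SE 0.117, edgeR adjusted p = 0.00368) and AC068580.3 gave -0.78 (SE 0.181, edgeR adjusted p = 0.00827). IFITM10 itself, at -0.87, was of similar size to these but was not called. AC068580.3 lies within the span of CTSD on the opposite strand. Whether reads were counted by strand is not known, so the 2 genes may not be separate neighbours. The readthrough gene AC068580.4, with which IFITM10 shares 1062 exon bases (22.2%), had 37 parental and 28 knockout counts. Over all 30 neighbours of the 3 loci, 6 were called lower and 5 higher, with a median of -0.06, beside 14.1% and 13.0% of all tested genes.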

How the data were processed

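The deposited values were raw read counts per gene symbol, 1 file per tumour, and per the submitters' processing notes TopHat2 2.1.1, HTSeq 0.11.0 and the build hg38 were used. Summary lines for reads in no feature (6.08% to 10.4%), ambiguous reads (3.98% to 4.31%) and reads not unique (4.52% to 8.11%) were left out, and 79.1% to 85.2% of reads were in genes. The lowest chi-square per degree of freedom between any of the 28 pairs of libraries was 8.21, so all 8 were kept. Groups follow the genotype labels.

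Counts were filtered with filterByExpr (minimum count 10, minimum total 15), scaled by TMM and compared by the quasi-likelihood F-test of edgeR 4.0.16 in R 4.3.3 with no covariate. P-values were adjusted over all 16219 genes by the Benjamini-Hochberg method, with a threshold of 0.05. The test was checked on simulated data. Log2 CPM used a prior count of 2. Alternatives were other scalings and filters, a replicate block, DESeq2 1.42.0, limma-voom (limma 3.58.1) and leaving out each library.

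The genes and lists were chosen with earlier results of these data known. Named were the 5 genes, SMARCA4, STAT2, IRF9, IRF1, IRF7, CD81, the 3 genes of each list with the smallest p among those called, the nearest and any called neighbours, and the 5 genes most like each. Of the file's symbols, 95.5% were in GENCODE 29. Sequences came from RefSeq and GENCODE 29 tables. One gene that this rule names is not reported here. Neither the strand setting nor the annotation counted is given in the sources used here.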

Additional observations from a re-analysis of the deposited data

Results flagged for a closer look

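In 6 of the 122 sets of 4 tumours that were compared gene by gene, 1 tumour stood far from its group by Dixon's criterion, and chance alone gives about 1 in 20 such sets. None of these was one of the 5 IFITM and BST2 genes. IFI44L was at 2.38 CPM in knockout replicate 3 against 0.560 to 0.841 in the other 3 knockout tumours. ARHGAP44 was at 21.2 CPM in knockout replicate 1 against 22.4 to 22.5, a small gap between nearly equal values. CD9 was at 159 CPM in parental replicate 4 against 124 to 128. Knockout replicate 4 stood apart for PSMD13, at 76.2 CPM against 59.99 to 62.2, and for B4GALNT4, at 34.5 CPM against 26.8 to 27.0. SLC27A1 was at 5.23 CPM in parental replicate 3 against 3.26 to 3.56.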

How the results depend on the processing

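IFITM1, IFITM2 and BST2 were called lower by each of the 17 alternatives that tested them, and IFITM3 by none, which describes genes that were picked from this contrast. IFITM10 was called lower as well, making 4 of 5, with no filter and without parental replicate 2. No pairing by replicate number is given in the sources used here. The correlations of same-numbered tumours about their group means were -0.043, -0.022, -0.187 and 0.086. These values cannot show whether same-numbered tumours shared a batch. With a replicate block, 3871 genes were called instead of 4385, the log2 fold changes were -3.17 for IFITM1 and -2.35 for BST2, GBP5, SAMHD1 and PTDSS2 were no longer called, MX1 was called lower, and 2 instead of 3 neighbours of the IFITM cluster were called. Over the 8 fits that each left out 1 library, 3501 to 4721 genes were called, 4 to 8 antiviral effectors were lower (8 without parental replicate 1, parental replicate 4 or knockout replicate 3), 0 to 2 signalling genes were lower, 1 to 2 handling genes were higher (NEDD4 without knockout replicate 4), and 2 to 5 neighbours of BST2 were called. Of the 5 genes most like each, such fits kept 0 to 2 for IFITM1, 0 to 1 for IFITM2 and IFITM10, and 0 to 3 for IFITM3 and BST2. With no filter, 10 antiviral effectors (adding MX1, IFI27, IFIT3, OAS2 and TRIM22) and 2 signalling genes were lower and 1 dispanin relative (PRRT1B) higher. DESeq2 called 1 signalling gene (IRF1) lower and 1 dispanin relative (PRRT1B) higher. With parental replicates 1 and 4 only, added after the data were seen, 4946 genes were called, 2515 of them lower (14.9% of those tested), IFITM1 was -2.79 and BST2 -1.86, 3 antiviral effectors were lower and 1 higher, 1 tetraspanin (CD53) and 1 dispanin relative (PRRT1B) were higher, and LSP1, a neighbour of IFITM10, was 1.25 instead of -0.83. The cause of these shifts was not tested. The 11 to 23 reads per knockout library limit the precision of IFITM1 and BST2.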
